A study of Mus musculus with 45 samples.

Results

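Aged mouse oocytes that had been cultured inside young somatic cells (AY) were compared with cultured oocytes of young mice (in vitro young), to ask how near the first come to the second in the RNA they hold. The libraries titled RCF AY (n = 6) and In vitro young (n = 8) were taken by their labels, 14 of the 45 libraries of the study, and every gene that passed a filter on low counts was compared. RCF stands for reconstituted chimeric follicle, a follicle whose own oocyte has been taken out and replaced by an oocyte of another follicle before culture. In AY the oocyte was aged and the somatic cells young. The in vitro young oocytes came from young mice and were cultured, and the labels record no exchange of the oocyte for them. Beside these 2 groups stood 2 further groups from reconstituted follicles, AA (n = 12), where oocyte and somatic cells were both aged, and YY (n = 11), where both were young, and young oocytes that were not cultured (in vivo young, n = 8).

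Each library was made from 1 oocyte. AY and in vitro young differ in the age of the oocyte, in reconstitution and in the series of library numbers (AY S234 to S244, in vitro young S128 to S165), and these cannot be told apart in this comparison. Strain, the age of the mice in weeks, the culture time and the meiotic stage are not given in the sources used here. The labels call the libraries biological replicates but name no animal, so a p-value here speaks of the spread from library to library and of nothing beyond it. All levels are relative to the other RNA of the same library, and the amount of RNA per oocyte was not measured.

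An oocyte grows inside a follicle, where granulosa cells pass it metabolites through gap junctions at the tips of fine projections that cross the zona pellucida. It stores mRNA and protein for the first divisions of the embryo, and its transcription falls nearly silent when growth ends, so the mRNA pool of a full-grown oocyte is set by what was stored and what was since removed. Ageing of the mother is known for lowering oocyte quality, above all through errors in chromosome segregation.

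Total counts ranged from 538916 to 1088254 in AY and from 900194 to 1527370 in in vitro young. Genes with a count averaged 14470 ± 739 per AY library and 15440 ± 464 per in vitro young library (SD, exact permutation p = 0.00899, adjusted over 10 comparisons of single values p = 0.0167). With every library thinned to the same total the means were 13000 in AY and 13130 in in vitro young (p = 0.329, exact permutation test). The mitochondrially encoded share of counts was 0.242% ± 0.087 in AY and 0.216% ± 0.058 in in vitro young (SD, exact permutation p = 0.522). Oocyte genes were abundant in every library: the summed level of 12 oocyte identity genes, among them Gdf9, Bmp15 and the zona genes Zp1, Zp2 and Zp3, ran from 17540 to 21710 CPM (counts scaled to a common library total) in AY and from 15780 to 24980 CPM in in vitro young. Theca, stroma and immune markers summed to means under 4 CPM in both groups, and endothelial and blood markers to 61.5 CPM in AY and 78.1 CPM in in vitro young, mostly Pecam1.

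Libraries of a group were not all alike. Over the 45 libraries, 11 genes were either present or nearly absent in a library, with a gap of at least 3 on the log2 scale, and their combinations formed 10 patterns. AY replicates 1 and 6 shared one pattern and AY replicates 2 to 5 another, while the 8 in vitro young libraries held 4 patterns. Oog3, a member of a family of oocyte genes with near-identical copies, had 1350 counts or more in AY replicates 1 and 6 and no count in the other 4 AY libraries. In in vitro young it had at least 1789 counts in 7 libraries and none in 1. Bfsp1, which encodes a lens filament protein, had 1 count in all AY libraries together against 750 in in vitro young, a ratio of in vitro young over AY of 398 (95% exact Poisson interval 71.3 to 15750, counting error only). No label says what the patterns stand for (animal, strain or day), and the comparison was also made with the libraries of each pattern summed to 1 sample.

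Most genes lay close together in AY and in vitro young. Of 9162 genes tested, 364 (3.97%) differed at an adjusted p under 0.05, of which 140 (1.53%) were higher and 224 (2.44%) lower in AY. A change of at least 2-fold was found for 103 genes (1.12%), 32 higher and 71 lower. For 6882 genes (75.1%) the 95% interval of the fold change lay inside 2-fold, and the median absolute log2 fold change over all genes was 0.22. In simulated counts of 9023 genes edgeR recovered 58.9% of 2-fold and 17.9% of 1.5-fold changes put in, so smaller differences would often be missed. The simulated libraries were drawn independently, without the library patterns, so these rates do not cover libraries that share a pattern. In 120 genes (1.31%) the AY and in vitro young libraries did not overlap, with AY above in 41 and below in 79. The count of 364 became 22 when libraries of each pattern were summed (2 AY and 4 in vitro young samples), 130 with the pattern as a random block, 193 with a covariate for how many genes a library detected, 82 with only the in vitro young libraries S128, S129, S148 and S149, and 351 with only S162 to S165. It became 223 without AY replicate 3, 236 without AY replicate 5, and without in vitro young replicate 6 only 223 of the 364 genes remained called. Of the genes that the naming rule took as called, 44 were not called with patterns summed, and Cdc34b, Cst3, Otx1, Mki67, Cenpf, Brca1, Myh11, Gxylt1, Srrm2, Dnmt3a and Phb2 were among those still called. With S128, S129, S148 and S149 alone 32 of the named genes lost their call, and none changed its direction.

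**Figure D1:**
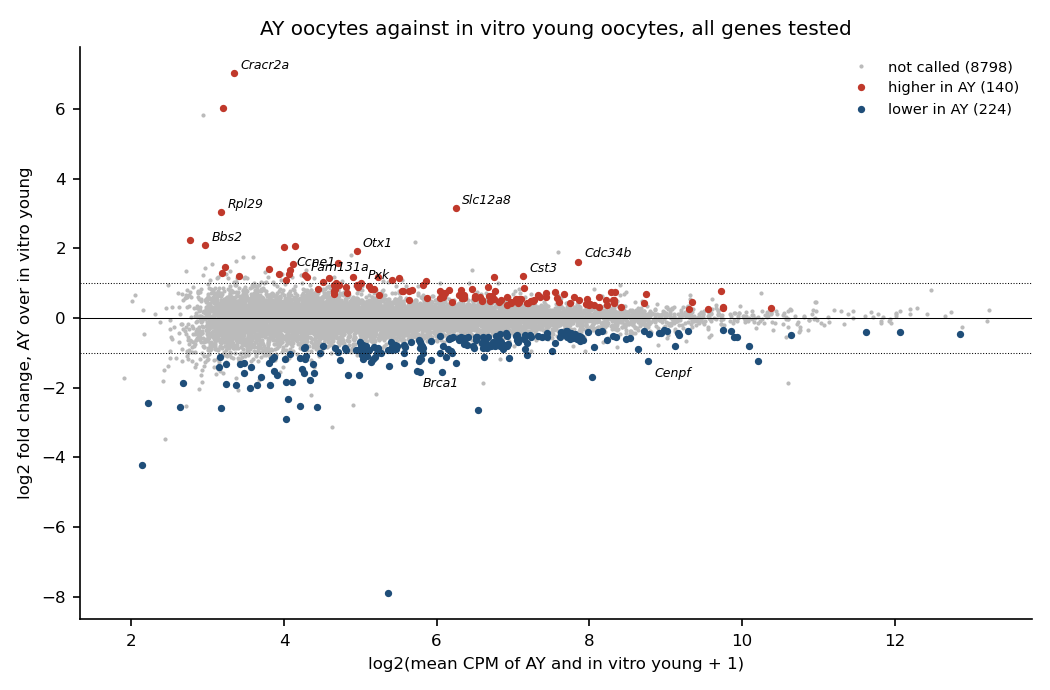
Log2 fold change, AY over in vitro young, against the mean level of the 2 groups as log2(CPM + 1), for 9162 genes. Red points are the 140 genes higher in AY, blue points the 224 lower, grey points the rest, and dotted lines mark 2-fold; most points lie between the dotted lines, and fitted folds of genes with almost no count in one group, such as Cracr2a, depend on the fit and are no measure of size.

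The other cultured groups were set against the same in vitro young libraries, which the 3 comparisons share. YY against in vitro young gave 378 calls (4.13%), 140 higher and 238 lower, with 84.5% of genes inside 2-fold. AA against in vitro young gave 1467 calls (16.0%), 627 higher and 840 lower, with 79.7% inside 2-fold. Since AY had 6 libraries, YY 11 and AA 12, the numbers of calls do not rank the groups by nearness. AY against YY, which uses no in vitro young library in its contrast, gave 120 calls (1.31%), 52 higher and 68 lower, and AY against AA gave 512 (5.59%). With libraries of each pattern summed, the calls were 1 for AY against AA, 15 for YY against in vitro young, 13 for AA against in vitro young and 0 for AY against YY, where 469 genes had an unadjusted p under 0.05 (edgeR).

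A distance that counts no calls was taken as the root mean square difference of a library's log2 CPM from the in vitro young mean (own library left out). It was 0.582 ± 0.037 in AY and 0.467 ± 0.052 in in vitro young itself (SD, exact permutation p = 0.00266, adjusted p = 0.00665). The lowest AY value, 0.538, lay below the highest in vitro young value, 0.579. AY stood 0.014 nearer than YY, whose mean was 0.596 (exact permutation p = 0.554), and 0.034 nearer than AA, whose mean was 0.616 (exact permutation p = 0.0704, adjusted p = 0.101). The AY libraries thus lay farther from in vitro young than those lay from each other, and with all libraries neither the difference from YY nor that from AA passed the test. The excess of AY over in vitro young, 0.115, was 0.060 with counts thinned to the lowest total (exact permutation p = 0.00366) and 0.048 with only the in vitro young libraries S128, S129, S148 and S149 (exact permutation p = 0.114). The difference of AY from AA had an unadjusted p of 0.0353 with thinned counts and of 0.0124 against those 4 in vitro young libraries (exact permutation tests). It was 0.0121 without AY replicate 4 and 0.0482, 0.0465 and 0.0467 without in vitro young replicate 1, 5 or 7 (exact permutation tests).

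**Figure D2:**
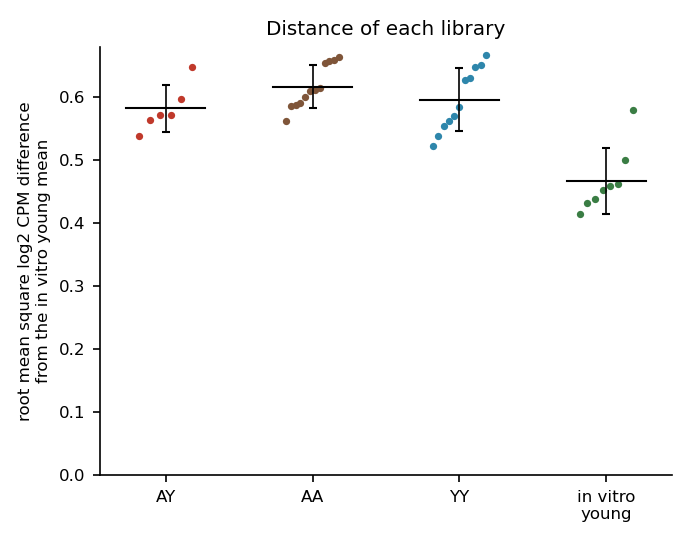
Root mean square log2 CPM difference of each library from the in vitro young mean, for AY, AA, YY and in vitro young; each point is a library, and lines and bars are the mean and SD. The 6 AY libraries lie between 0.538 and 0.648, inside the range of the YY libraries (0.523 to 0.667) and mostly above in vitro young. The AA libraries lie between 0.562 and 0.663, and the lowest AY library lies below all of them.

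Among the genes higher in AY, the smallest p belonged to Cdc34b, a ubiquitin-conjugating enzyme (chromosome 11, 94632608 to 94633859, mm39). Cdc34b had a lowest, median and highest level of 249, 294 and 619.9 CPM in AY, against 82.4, 114 and 150.6 CPM in in vitro young. The groups did not overlap, and the log2 fold change was 1.62 ± 0.18 (SE, adjusted p = 5.94e-08). Reads of Cdc34b could be shared with near-identical relatives of the gene, so its level is uncertain. Cst3, which encodes the secreted protease inhibitor cystatin C (chromosome 2, 148713642 to 148717612), had 127.8, 204 and 252 CPM in AY, against 60.3, 80.0 and 130.5 CPM in in vitro young. Its log2 fold change was 1.20 ± 0.18 (SE, adjusted p = 8.39e-06), and only in vitro young replicate 2 reached into the AY range. Ccne1, the cyclin E1 gene (chromosome 7, 37797409 to 37806959), had 15.8, 21.4 and 31.5 CPM in AY, against 5.47, 8.51 and 12.3 CPM in in vitro young. Those groups did not overlap, at a log2 fold change of 1.38 ± 0.34 (SE, adjusted p = 0.00925). With libraries of each pattern summed Cdc34b and Cst3 were still called, and Ccne1 was not (adjusted p up to 0.109 over the alternatives).

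Other genes rose through some libraries or from almost nothing. Slc12a8, of the cation-chloride cotransporter family (chromosome 16, 33337698 to 33484505), split within AY: replicates 2 to 5 had 236, 177, 145.5 and 235 CPM and replicates 1 and 6 had 8.10 and 14.1 CPM. In vitro young ran from 5.14 to 25.5 CPM with a median of 15.5 CPM, so the 2 low AY libraries lay within its range. The log2 fold change of Slc12a8 was 3.17 ± 0.43 (SE, adjusted p = 8.39e-06). Its split followed the 2 patterns of AY libraries, and with libraries of each pattern summed the adjusted p was 0.178. Cracr2a, a regulator of calcium entry channels (chromosome 6, 127538301 to 127651211), had 8 to 19 counts in each AY library, 82 in all, and none in the 8 in vitro young libraries. YY had 28 counts in all, with 4 of 11 libraries at 0, and AA had 4 counts in all. YY was also called higher than in vitro young (adjusted p = 0.00462), and AY higher than YY (adjusted p = 0.00882). Against a floor of 3 counts over the in vitro young group Cracr2a was at least 51.5-fold higher in AY (adjusted p = 8.09e-07; 0.0689 with patterns summed). The homeobox gene Otx1 averaged 47.2 ± 14.3 CPM in AY and 12.7 ± 8.1 CPM in in vitro young (SD, log2 fold change 1.93 ± 0.41 SE, adjusted p = 0.00277; 0.19 against S128, S129, S148 and S149 alone). Pxk, Fam131a and Bbs2 rose by log2 1.01, 1.24 and 2.10, and all 3 lost their call with patterns summed. For Fam131a YY was also higher than in vitro young (log2 1.23, adjusted p = 0.000259). For Pxk and Bbs2 AA was also higher than in vitro young (log2 0.98 and 2.76, adjusted p = 0.000812 and 3.43e-05).

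Mki67, Cenpf and Brca1 were among the 10 genes with the smallest p that were at least 2-fold lower in AY and passed the level filters of the naming rule. Mki67, whose protein coats mitotic chromosomes (chromosome 7, 135291513 to 135318090), had 49.5, 62.1 and 77.8 CPM in AY as its lowest, median and highest level, against 112, 138 and 154 CPM in in vitro young. Cenpf, a large kinetochore protein (chromosome 1, 189372803 to 189420283), had 181, 268.5 and 321 CPM in AY, against 464, 609.5 and 725 CPM in in vitro young. Brca1, which acts in homologous recombination (chromosome 11, 101379590 to 101442781), had 15.8, 30.4 and 34.0 CPM in AY, against 47.1, 77.5 and 105 CPM in in vitro young. In each of these genes every AY library lay below every in vitro young library. The log2 fold changes were -1.12 ± 0.14 for Mki67 (SE, adjusted p = 2.12e-07), -1.23 ± 0.17 for Cenpf (adjusted p = 1.11e-05) and -1.51 ± 0.24 for Brca1 (adjusted p = 2.44e-05).

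The groups did not overlap for any of these 10 lower genes. Timd4, a receptor for phosphatidylserine (chromosome 11, 46701627 to 46735159), had 30.6, 40.9 and 65.3 CPM in AY, against 77.7, 101.5 and 155 CPM in in vitro young (log2 fold change -1.30 ± 0.23 SE, adjusted p = 0.000273). Others were Golgb1, a Golgi tether, at log2 -1.11, Slx4ip, a partner of a DNA repair nuclease scaffold, at -1.54, the smooth muscle myosin heavy chain gene Myh11 at -1.39, the xylosyltransferase gene Gxylt1 at -1.16 and the splicing factor gene Srrm2 at -1.20. Mki67, Cenpf, Brca1, Myh11, Gxylt1 and Srrm2 were called under every alternative tried, also with libraries of each pattern summed. Timd4 (adjusted p = 0.145), Slx4ip (0.0991) and Golgb1 (0.0595) were not called with patterns summed.

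**Figure D3:**
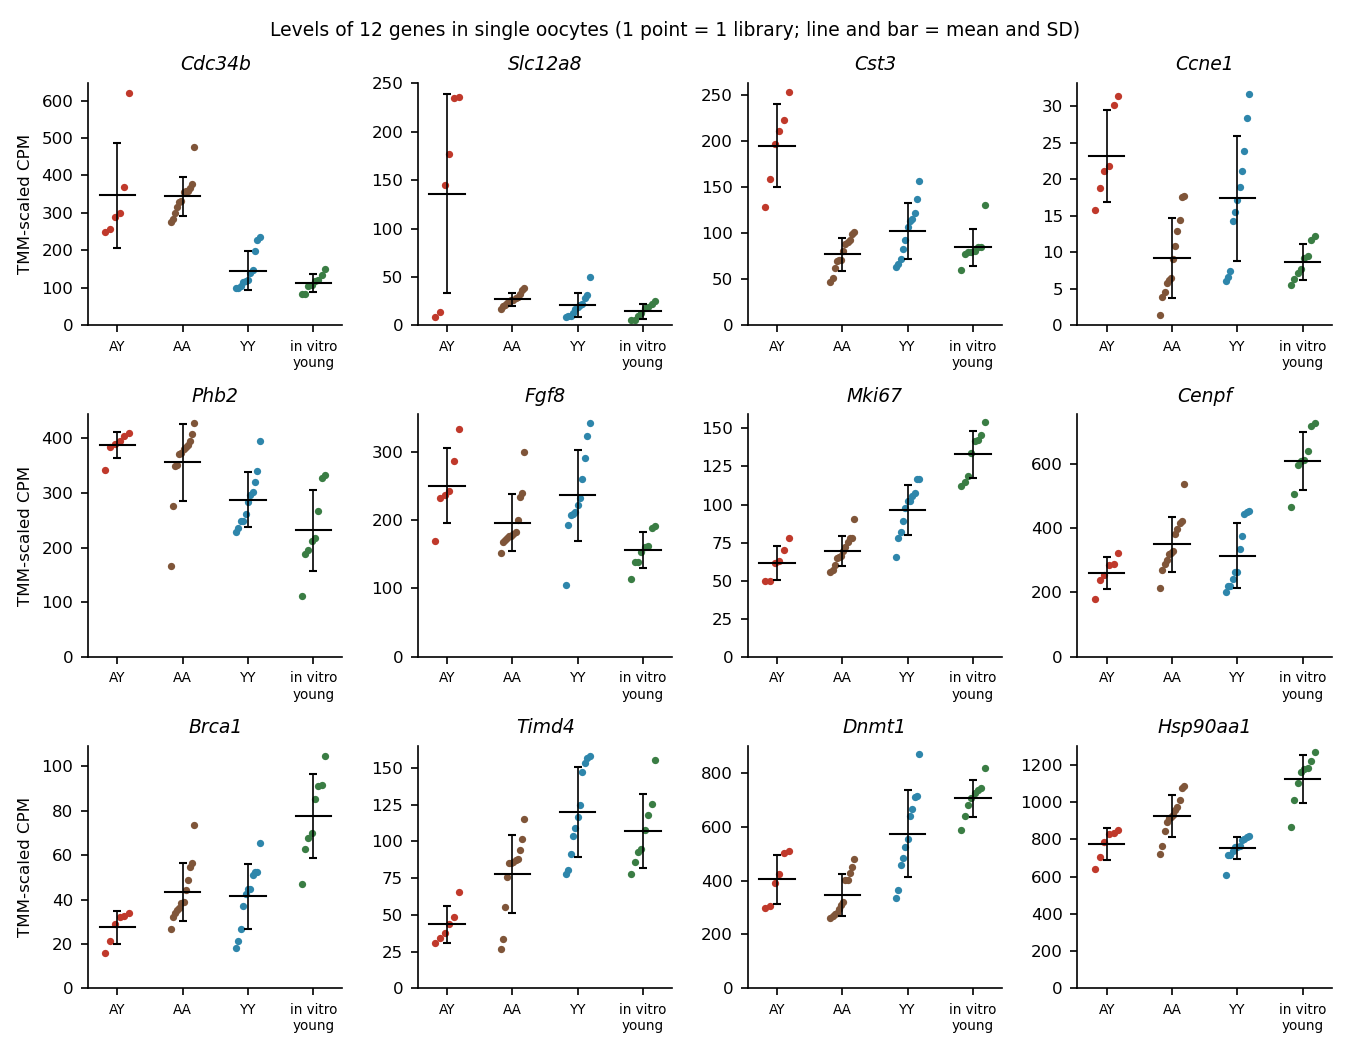
TMM-scaled CPM of 12 genes in each library of AY, AA, YY and in vitro young, with mean and SD; each axis starts at 0. Cdc34b, Ccne1 and Phb2 lie higher in all 6 AY libraries than in all in vitro young ones, Mki67, Cenpf, Brca1, Timd4, Dnmt1 and Hsp90aa1 lower, and Slc12a8 is split within AY between 8.10 CPM and 236 CPM.

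The same genes held different places when YY and AA were set beside them. Cdc34b, at 347 ± 140 CPM in AY, averaged 146 CPM in YY, and AY was higher than YY by log2 1.24 (adjusted p = 1.25e-05). Cst3 was higher in AY than in YY by log2 0.92 (adjusted p = 0.000771), and Slc12a8 by 2.72 (adjusted p = 7.28e-05). Timd4 was lower in AY than in YY by log2 -1.45 (adjusted p = 7.37e-05), Mki67 by -0.65 (adjusted p = 0.00403) and Myh11 by -1.14 (adjusted p = 0.00177). For Cenpf the difference of AY from YY was log2 -0.27 (adjusted p = 0.488), and YY itself stood at -0.96 from in vitro young (adjusted p = 4.68e-05). For Brca1 the difference of AY from YY was -0.57 (adjusted p = 0.252), with YY at -0.94 from in vitro young (adjusted p = 0.00149). For Hsp90aa1, an Hsp90 chaperone, the difference of AY from YY was 0.04 (adjusted p = 0.896), with YY at -0.58 from in vitro young (adjusted p = 2.79e-06). With patterns summed no gene was called between AY and YY by edgeR. Against AA, AY was higher for Cst3 by log2 1.345 (adjusted p = 8.12e-08) and for Slc12a8 by 2.33 (adjusted p = 0.00015). Timd4 was lower than in AA by log2 -0.83 (adjusted p = 0.0181). Cdc34b averaged 344 CPM in AA, and AY differed by log2 0.02 (adjusted p = 0.975). For Mki67, Myh11 and Cenpf AY differed from AA by log2 -0.18, -0.53 and -0.43, and for Brca1 and Hsp90aa1 by -0.69 and -0.26. None of these was called (adjusted p = 0.0584 or higher).

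Transcript length and GC content both went with the direction of the difference. Each gene was placed by its longest annotated transcript, known for 9152 of the 9162 genes. Over these genes the log2 fold change had a Spearman correlation of -0.241 with transcript length and of 0.221 with GC content. Among 530 genes with transcripts of 8 kb and over, 53 were lower in AY and 0 higher, with a median log2 fold change of -0.23. From 5 to 8 kb 64 were lower and 9 higher of 1379 genes (median -0.13), and from 3 to 5 kb 56 were lower and 34 higher of 2843 (median -0.02). From 2 to 3 kb 23 were lower and 38 higher of 1767 genes (median 0.06). From 1 to 2 kb 17 were lower and 45 higher of 1611 genes (median 0.09). Under 1 kb 11 were lower and 14 higher of 1022 genes (median 0.07). Mki67 (10.1 kb), Cenpf (11.1 kb), Golgb1 (11.0 kb) and Srrm2 (8.86 kb) were of the longest class, while Cdc34b (1.25 kb) and Cst3 (0.86 kb) were short. Other named genes went the other way: Cracr2a (7.62 kb) and Otx1 (5.27 kb) were higher in AY, and Timd4 (2.17 kb) was lower.

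The share of all counts that fell on genes of 5 kb and over ran from 13.9% to 14.4% in AY, with a median of 14.2%, and from 14.9% to 16.8% in in vitro young, with a median of 15.4%. Every AY library lay below every in vitro young library (exact permutation p = 0.000333, the smallest possible with each library taken as a unit, adjusted p = 0.00166). Libraries that share a pattern were counted singly in this test. The mean of AY was 14.14%, against 15.28% in YY (exact permutation p = 8.08e-05, the smallest possible, adjusted p = 0.000808) and 14.08% in AA (exact permutation p = 0.719). RNA quality of the oocytes was not measured in these files, and its part in this pattern was not tested. When every library was corrected for transcript length and GC content, 220 genes were called, 106 higher and 114 lower, of which 172 were among the 364. In the class of 8 kb and over the calls were then 12 lower and 10 higher. The correction takes out the trend with length, so this balance is no test of that trend. Length and GC content were corrected together, and lost calls were not assigned to either. Mki67, Cenpf, Brca1 and Srrm2 were still called after the correction. Of the named genes 16 lost their call, all described below. They were Setd2, Brca2, Rdx, Pik3r1, Aldoa, Fgf8, Nlrp5, Canx, Cd9, Izumo1r, Cnot1, Trpm7, Atp5d, Eif4e1b, Prdx2 and Insig1. Over all alternatives the log2 fold change of Mki67 was -0.84 or lower and that of Cenpf -0.93 or lower. This share and this correction were chosen after the data had been seen.

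**Figure D4:**
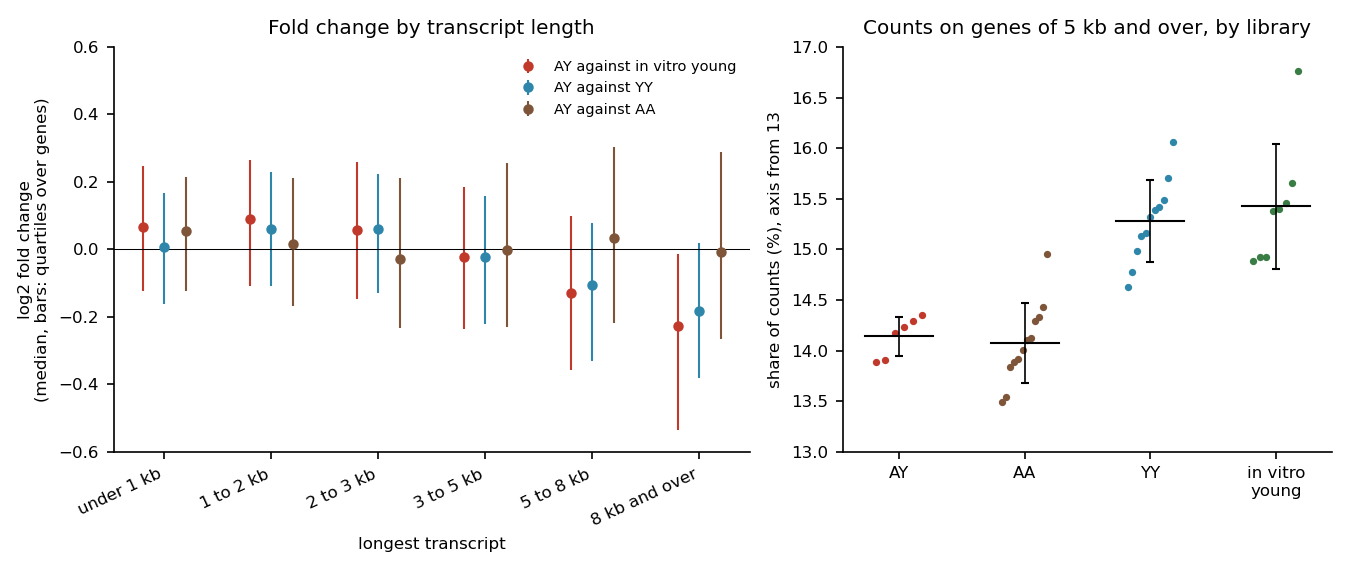
Left, median log2 fold change (bars, quartiles over genes) by class of longest transcript for AY against in vitro young, AY against YY and AY against AA. Right, share of counts on genes of 5 kb and over in each library, with mean and SD (the axis starts at 13%): AY lies below in vitro young and YY, and AY and AA overlap.

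Gene lists of oocyte function were read against the background of 1.53% of all genes higher and 2.44% lower and against a median log2 fold change of 0.00 over all genes. Of 13 tested genes of the subcortical maternal complex and its partners, proteins stored under the egg surface for the embryo, 3 were lower in AY, none higher, and the median was -0.48. Nlrp9c had 737 to 839 CPM in AY, against 863 to 1443 CPM in in vitro young, without overlap (log2 fold change -0.56 ± 0.12 SE, adjusted p = 0.00409), and reads may be shared with its close relatives. Padi6 averaged 794 ± 189 CPM in AY and 1385 ± 442 CPM in in vitro young (SD, adjusted p = 0.016). Nlrp5 averaged 711.5 ± 249.5 CPM in AY and 1660 ± 811 CPM in in vitro young (SD, log2 fold change -1.23, adjusted p = 0.0433). Its in vitro young libraries ran from 529 to 2753 CPM and covered the AY range, and its call was lost under 19 of 28 alternatives. All 3 genes lost their call with patterns summed, and the list held 1 call without AY replicate 5 and 5 without in vitro young replicate 2 or 3. YY was lower than in vitro young in 7 of the 13 genes (median -0.61), and AY against YY gave 0 calls (median 0.24). AY against AA gave 3 lower and 0 higher (median -0.28).

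Genes of the chromosome machinery moved little as lists. Of 26 kinetochore and checkpoint genes only Cenpf and Cenpe, the kinesin of the kinetochore, were called, both lower, and the list's median was 0.04. Cenpe had 263 to 299 CPM in AY, against 354 to 516 CPM in in vitro young, with no overlap (log2 fold change -0.61 ± 0.10 SE, adjusted p = 0.00015). Of 25 spindle and microtubule genes 3 were lower: Ckap5 by log2 -0.88, Kif4 by -0.65 and Cep192 by -0.92. For Ckap5 and Kif4 YY was also lower than in vitro young (log2 -0.53 and -0.60, adjusted p = 0.0167 and 0.000442). Of 16 genes of cohesin and recombination 1 was called, Sgo2a, the shugoshin that guards centromeric cohesin, which was higher in AY at 80.9 ± 8.3 CPM, against 51.2 ± 16.6 CPM in in vitro young (SD, adjusted p = 0.0183). None of 27 genes of meiotic resumption and the cell cycle was called by edgeR or DESeq2, 1 by voom, and 2 had an unadjusted p under 0.05.

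Calls among chromatin genes all ran toward lower levels in AY. Of 45 genes of histone modification and remodelling 6 were lower and 0 higher, with a list median of -0.10: Ezh2 (-0.42), Setd2 (-0.78), Kmt2c (-0.56), Ep300 (-1.17), Chd4 (-0.55) and Baz2b (-0.46). Only 2 members were called without in vitro young replicate 6 or AY replicate 5, and 3 without in vitro young replicate 4, 5 or 8 or AY replicate 2 or 3. Of 10 genes of DNA methylation and demethylation Dnmt1 and Dnmt3a fell and none rose. Dnmt1, the maintenance enzyme, had 298, 409 and 508.5 CPM in AY, against 590 to 819 CPM with a median of 715 CPM in in vitro young (log2 fold change -0.80 ± 0.16 SE, adjusted p = 0.00239). Dnmt3a, the de novo enzyme of the oocyte, averaged 170 ± 32 CPM in AY and 259 ± 23 CPM in in vitro young (SD, log2 fold change -0.61 ± 0.12 SE, adjusted p = 0.00166). Neither gene's groups overlapped, and with patterns summed Dnmt3a was called and Dnmt1 was not (adjusted p = 0.202). Of 30 genes of DNA damage and repair Brca1, Brca2 (-0.56) and Lig1 (-0.87) were lower and none was higher. These calls fell largely on long transcripts: Kmt2c 14967 bases, Brca2 10.7 kb, Dnmt3a 9.68 kb, Ep300 9.57 kb, Setd2 8.35 kb and Baz2b 7.90 kb. Dnmt1 had 5.87 kb, but Ezh2 2.79 kb and Lig1 3.20 kb. Of the 45 genes of histone modification and remodelling, AA against in vitro young gave 14 lower and 0 higher, and YY 2 lower and 1 higher. Of the 10 genes of DNA methylation and demethylation, AA gave 5 lower and 1 higher, and YY gave no call. Over all 9162 genes AA gave 840 lower and 627 higher, and YY 238 lower and 140 higher.

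Few mitochondrial and metabolic genes were called. Of 73 nuclear genes of oxidative phosphorylation 70 had intervals inside 2-fold, 1 was called (Atp5d, log2 0.73, adjusted p = 0.0399), and the median was 0.08. The call of Atp5d was lost under 18 of 28 alternatives, 10 of which left out 1 library. None of 12 mitochondrially encoded genes was called by edgeR, DESeq2 or voom, with 1 at an unadjusted p under 0.05, but their median was 0.34 and only 3 had intervals inside 2-fold. Phb2, a prohibitin of the inner mitochondrial membrane (chromosome 6, 124689299 to 124693913), had 343, 393 and 410 CPM in AY, against 112, 214 and 332 CPM in in vitro young. Its groups did not overlap (log2 fold change 0.75 ± 0.17 SE, adjusted p = 0.00659), and its call was lost only with in vitro young S128, S129, S148 and S149 alone (adjusted p = 0.176). Of 36 genes of glycolysis, lactate, pyruvate and the citric acid cycle, Aldoa, the aldolase of glycolysis, and Slc16a1, a transporter of lactate and pyruvate, were higher, and Ldhb, a lactate dehydrogenase subunit, was lower, a call lost under 12 of 28 alternatives. Aldoa had 169 to 215.5 CPM in AY, against 102 to 143 CPM in in vitro young, with no overlap (log2 fold change 0.52 ± 0.12 SE, adjusted p = 0.00695). Slc16a1 averaged 50.6 ± 6.4 CPM in AY and 22.6 ± 12.95 CPM in in vitro young (SD, log2 1.19, adjusted p = 0.0137).

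Protein handling showed a few lower chaperones. Of 19 genes of heat shock and cytosolic chaperones 1 was called, Hsp90aa1, and the list's median was 0.00. All 19 had intervals inside 2-fold, and 4 were called without in vitro young replicate 3. Hsp90aa1, the inducible cytosolic Hsp90, had 641, 809 and 849 CPM in AY, against 867, 1172 and 1269 CPM in in vitro young, without overlap (log2 fold change -0.54 ± 0.09 SE, adjusted p = 0.000158). Of 23 genes of the unfolded protein response and the endoplasmic reticulum Hsp90b1 (log2 -0.79) and Canx (-0.51), both chaperones of that compartment, were lower and none was higher. Canx lost its call under 7 of 28 alternatives, among them those without AY replicate 1, AY replicate 6 or in vitro young replicate 7, and 4 genes of the list were called without in vitro young replicate 2. Hsp90aa1 lost its call only with patterns summed (adjusted p = 0.0641). Hsp90b1 lost its call with patterns summed and with in vitro young S128, S129, S148 and S149 alone. For Hsp90b1 YY was also lower than in vitro young (log2 -0.63, adjusted p = 0.00279). None of 32 proteasome genes was called by edgeR, DESeq2 or voom, 5 had an unadjusted p under 0.05, and 31 had intervals inside 2-fold. Of 56 genes of cytosolic ribosomal proteins Rpl29 (log2 3.04) and Rpl7a (2.06) were higher, both from low levels, at 14.4 ± 6.8 and 27.2 ± 6.3 CPM in AY, against 1.75 ± 1.90 and 6.24 ± 5.71 CPM in in vitro young (SD). Both have many processed pseudogenes that could take their reads, and both lost their call with patterns summed.

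The dialogue of oocyte and follicle was represented by secreted factors, contacts and signalling. Fgf8, which the oocyte secretes to steer the metabolism of cumulus cells, averaged 250.4 ± 55.4 CPM in AY and 156 ± 26 CPM in in vitro young (SD, log2 fold change 0.70 ± 0.17 SE, adjusted p = 0.0125). It was the only one called of 12 secreted factors and transcription factors, and its call was lost without AY replicate 1 (adjusted p = 0.055). For Fgf8 YY was also higher than in vitro young (log2 0.60, adjusted p = 0.0125), and AY differed from YY by log2 0.09 (adjusted p = 0.868). Gdf9, the main oocyte growth factor for the follicle, had 6915 ± 1045 CPM in AY and 8187 ± 1212 CPM in in vitro young (SD) and did not pass the test, with an interval inside 2-fold (log2 -0.24 ± 0.13 SE, adjusted p = 0.326). Of 13 genes of contact with somatic cells Tjp1, a scaffold of tight junctions, Rdx, the radixin of microvilli, and Bmpr2, a receptor for bone morphogenetic proteins, were lower. Tjp1 averaged 19.7 ± 4.0 CPM in AY and 44.2 ± 10.4 CPM in in vitro young (SD, log2 -1.17, adjusted p = 0.00313). For Tjp1 AY was also lower than YY (log2 -1.33, adjusted p = 0.00149). AA was lower than in vitro young as well (log2 -0.91, adjusted p = 0.0014), and AY differed from AA by log2 -0.26 (adjusted p = 0.6). Mtor (-0.90) and Pik3r1 (-0.55), of growth factor signalling, were lower among 20 genes of their list, and Pik3r1 lost its call under 10 of 28 alternatives. On the egg surface Izumo1r, the receptor for sperm also named Juno, was higher by log2 0.42 and the tetraspanin Cd9 was lower by -0.62 (adjusted p = 0.0175 and 0.0473), and neither was called with patterns summed or without AY replicate 2. Cd9 lost its call under 18 of 28 alternatives, 9 of which left out 1 library, and 4 genes of the list were called without in vitro young replicate 2.

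Markers of granulosa cells were higher in AY. The summed level of the 10 markers was 1158 ± 253 CPM in AY and 655 ± 170 CPM in in vitro young (SD, exact permutation p = 0.002, adjusted p = 0.00665). In vitro young ran from 518 to 993 CPM. AY replicates 1 and 6, which share a pattern, were at 821.5 and 849.9 CPM, inside that range, and AY replicates 2 to 5 at 1271 to 1381 CPM. Serpine2, a secreted protease inhibitor, made up most of the sum. Its TMM-scaled level was 1237 to 1311 CPM in AY replicates 2 to 5, 609 and 761 CPM in AY replicates 1 and 6, and 470 to 1003 CPM in in vitro young. Without Serpine2 the sum was 97.7 ± 56.7 CPM in AY and 44.3 ± 9.1 CPM in in vitro young (SD). Only AY replicate 2, at 35.1 CPM, lay inside the in vitro young range of 29.3 to 57.0 CPM. The sum of all 10 markers averaged 966 CPM in AA and 668 CPM in YY. Amh, a defining product of granulosa cells, was at 0 in both groups, Foxl2 averaged 0.153 CPM in AY and 0 in in vitro young, and Cyp19a1 averaged 15.8 CPM in AY and 21.4 CPM in in vitro young. Inha averaged 44.3 CPM in AY and 12.6 CPM in in vitro young, and the gap junction gene Gja1 17.04 CPM in AY and 5.22 CPM in in vitro young. Of 5 tested members of the list Serpine2 and Inhba were called, both higher. Serpine2 lost its call with patterns summed, with in vitro young S162 to S165 only and with only AY and in vitro young in the fit. Inhba was not called without AY replicate 1 or 5 or in vitro young replicate 7, and lost its call under 9 of 26 alternatives, while 4 members were called without AY replicate 2. The part of attached somatic cells in the differences above was not tested.

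The remaining lists gave few calls. Single genes were higher for translation of stored mRNA (Eif4e1b, an oocyte cap-binding protein, log2 0.44), antioxidants (Prdx2, 0.26) and cholesterol synthesis (Insig1, 0.56), each with an adjusted p close to the threshold (0.0494, 0.049 and 0.0494) and each lost under at least 19 alternatives. Single genes were lower for mRNA deadenylation (Cnot1, -0.83), hypoxia (Egln1, -0.44) and calcium and zinc handling (Trpm7, -1.64), and these calls were lost under 10, 17 and 10 of 28 alternatives. Lists without a call by edgeR were the 22 tRNA synthetases and modifiers (3 genes at an unadjusted p under 0.05, 0 called by DESeq2, 1 by voom), the 28 splicing genes (3, 0 and 2), the 12 apoptosis genes (3, 1 and 1), the 11 high mobility group proteins and histones (2, 0 and 2), the 7 imprinted genes (2, 0 and 2), the 4 genes of senescence and inflammation (2, 1 and 0), the 3 immediate early genes (0, 0 and 0) and the 1 gene of endothelium and blood (1, 0 and 0), beside those given above. No gene of cumulus expansion, theca and stroma or immune cells passed the filter on low counts. Among the most abundant transcripts H1f8, the oocyte linker histone, had 10340 ± 316 CPM in AY and 8875 ± 1060 CPM in in vitro young (SD, log2 0.22, adjusted p = 0.0735, called by DESeq2 and voom), and Spin1, a reader of histone marks, 9114 ± 585 CPM in AY and 9742 ± 888 CPM in in vitro young (SD, log2 -0.10, adjusted p = 0.53). The polyubiquitin gene Ubb had 7221 ± 332 CPM in AY and 6443 ± 939 CPM in in vitro young (SD, log2 0.16, adjusted p = 0.301), and the intervals of these 3 genes lay inside 2-fold.

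**Figure D5:**
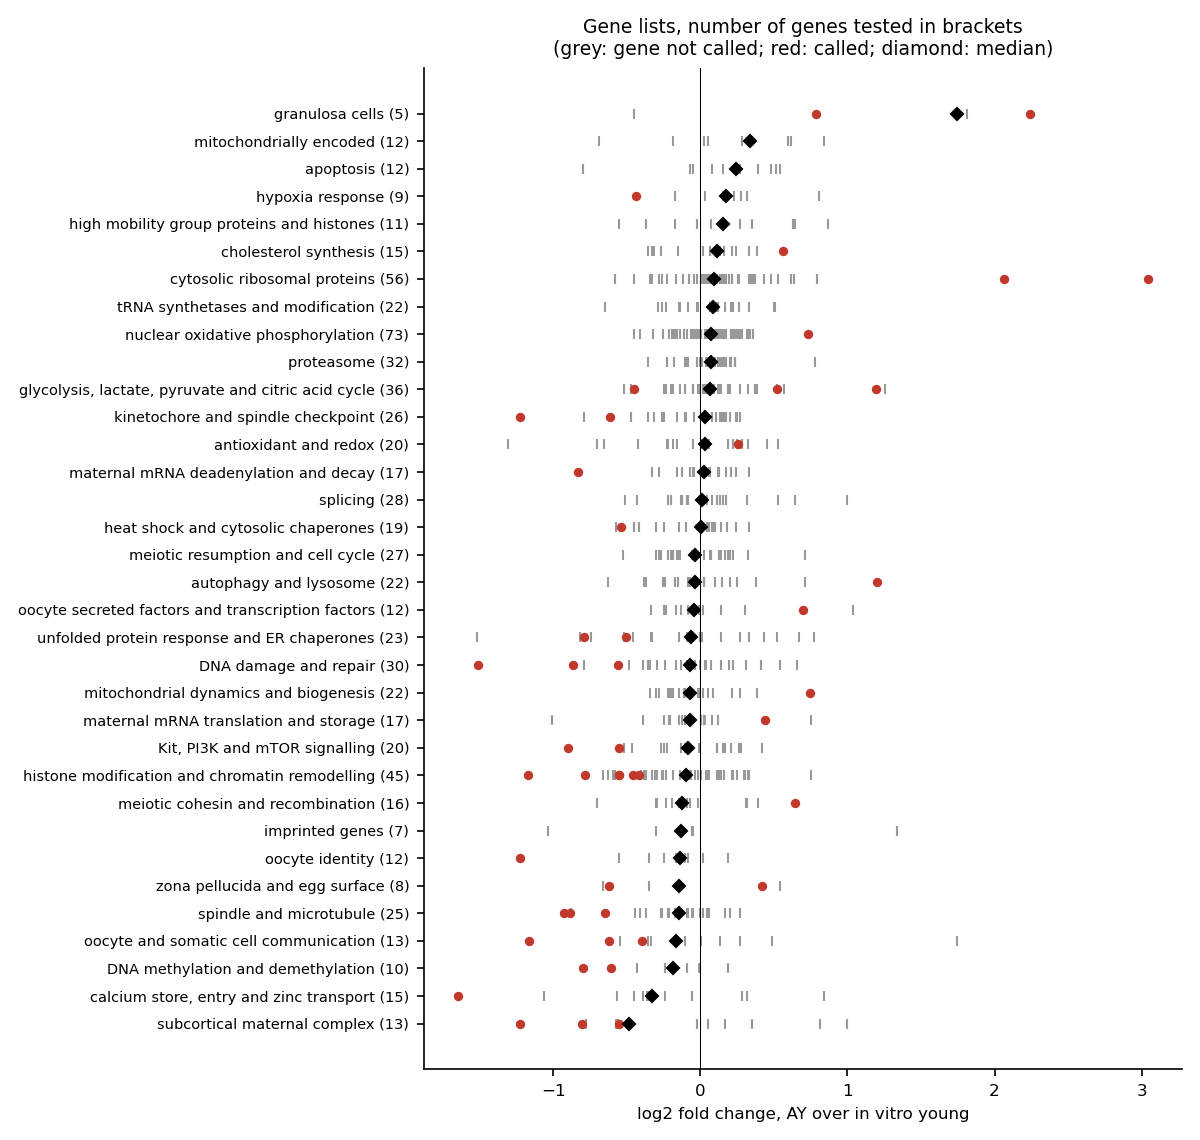
Log2 fold change, AY over in vitro young, of each tested gene in the lists with 5 or more tested genes; grey ticks are genes not called, red points genes called, and diamonds list medians. Most medians lie near 0, with the granulosa list highest and the subcortical maternal complex lowest at -0.48.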

How the data were processed

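RNA of single mouse oocytes was sequenced with 45 libraries in 5 groups. They were made per the labels' protocols with a low-input kit that amplifies the cDNA by PCR. The reads carry no molecular identifiers, and the exact Poisson interval given for Bfsp1 covers counting error only. The authors deposited whole-number read counts per gene, not normalized, for 55357 gene identifiers. The submitters' processing notes name mm39 as the mouse build, with HTSeq 0.11.0 and STAR 2.7.8a. Strand and the handling of shared reads are not given in the sources used here. Gene positions were read from the deposited table and are 1-based, with the end set to the last base.

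Counts were fitted with edgeR 4.0.16 in R 4.3.3 (TMM scaling, filterByExpr by group with a minimum count of 10 and a total of 15, robust quasi-likelihood fit of all 45 libraries in 5 groups). Calls are at a Benjamini-Hochberg adjusted p under 0.05 over 9162 genes, and every adjusted p of a gene comes from this test unless another setting is named. Intervals of fold changes are 95% intervals from the standard errors of the fit, which include the spread between libraries. Levels are TMM-scaled CPM computed here from the deposited counts, with exceptions. Sums over markers and the levels of Amh, Foxl2, Cyp19a1, Inha and Gja1 are unscaled CPM. Values per library were compared by two-sided exact permutation tests. These tests took each library as a unit and did not take account of the library patterns, so libraries that share a pattern were counted singly. Log2 CPM for distances used a prior count of 2. Named genes are the 10 with the smallest p in each direction that were called, changed at least 2-fold, reached 10 CPM in the higher group and held at least 5 counts in 75% of its libraries, without predicted models and pseudogenes; added were up to 2 called genes per list and the 5 most abundant genes with an interval inside 2-fold. Further called list members (Cep192, Kmt2c, Ep300, Chd4, Baz2b, Lig1, Bmpr2), and the genes of the library patterns, were named after their values were seen. A gene that the rule takes is not reported here, and counts include it. The groups, the 40 lists (987 entries, 985 matched) and the tests were chosen with earlier results of these data known.

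The fit was tested on simulated data: of 4-fold changes 95.8% were recovered, with 10 false calls. These libraries were drawn independently, so neither rate covers libraries that share a pattern. Alternatives used other scaling, DESeq2 1.42.0, limma 3.58.1 with voom, other filters, covariates, library sets, sums or blocks by library pattern, and each library left out; the correction for transcript length and GC content, with 5 spline degrees of freedom and transcripts of the GENCODE annotation, and the share of counts on long transcripts were added after seeing the data. Replicate numbers were not used to pair libraries.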

Additional observations from a re-analysis of the deposited data

Results flagged for a closer look

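In 10 of 130 groups of values checked, 1 library stood apart from the rest of its group by more than a test for a lone extreme value allows at 95%; chance alone flags about 1 group in 20. In AY, replicate 2 was low for Srrm2 (15.8 CPM, the next 32.7), Phb2 (343 CPM, the next 384) and Insig1 (75.1 CPM, the next 122). AY replicate 4 was high for Kif4 (265 CPM, the next 178), Aldoa (215.5 CPM, the next 181) and Mtor (34.0 CPM, the next 20.7). AY replicate 6 was low for Pxk (19.2 CPM, the next 40.2). In in vitro young, replicate 2 was high for Cst3 (130.5 CPM, the next 85.4) and for the share of counts on genes of 5 kb and over (16.8%, the next 15.7%), and low for Ubb (4409 CPM, the next 6232). Without the library that stood apart, each of these results other than Ubb, which was not called, kept its call.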

How the results depend on the processing

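Of the 364 calls between AY and in vitro young, edgeR made 365 with RLE size factors (363 of them the same genes), DESeq2 462 (349) and voom 701 (354), and the counts of at least 2-fold went with voom to 166. The genes-detected covariate gave 193 calls (54 of at least 2-fold), in vitro young S128, S129, S148 and S149 alone 82 (36), patterns summed 22 (14), the pattern as a random block 130 (52) and the length and GC correction 220 (59), against 103 of at least 2-fold in all. Pattern sums and blocks gave 15 and 142 for YY against in vitro young (378), 13 and 466 for AA against in vitro young (1467), and 0 and 15 for AY against YY (120). Leaving out 1 library gave 223 to 429 calls, 61 (without in vitro young replicate 6) to 121 of at least 2-fold and 6535 to 6793 genes inside 2-fold.

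The distance of AY beyond in vitro young was 0.099 to 0.135 with 1 library left out, 0.060 with thinned counts (p = 0.00366, exact permutation) and 0.048 with S128, S129, S148 and S149 alone (p = 0.114, exact permutation). AY minus YY was -0.027 to -0.005, and turned to 0.0045 with those 4. AY minus AA was -0.047 to -0.025, passing p = 0.05 in 4 of 14 such sets, and was -0.053 with those 4, -0.026 with thinned counts and -0.033 with genes of at least 50 CPM (exact permutation p = 0.0124, 0.0353 and 0.049). Genes detected differed by -1178 to -740 with 1 library left out, -687 with those 4 (p = 0.124, exact) and -127 with thinned counts. The mitochondrial share differed by -0.0058 to 0.043 percentage points, turned without AY replicate 6 only. Granulosa markers differed by 458 to 570 CPM and the long-transcript share by -1.36 to -1.09 points (against YY -1.18 to -1.09, against AA 0.022 to 0.12). Spin1 turned to log2 0.014 under the length and GC correction. The causes were not tested, except that pattern sums leave fewer samples.

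Replicate numbers did not pair the libraries: same-numbered AY and in vitro young libraries correlated at -0.08 to 0.17, and a replicate block gave 322 calls (122 higher, 200 lower). No 2 libraries agreed within counting noise.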
